A study of Homo sapiens with 12 samples.

Results

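Broad vehicle domains are stretches of at least 4000 bp that were called as a single peak of H3K4me2 in vehicle-treated U-937 cells and that contain the canonical start site of at least 1 protein-coding gene. Of the 65172 peaks in the vehicle list, 1649 were at least 4000 bp wide, and 1158 of these held a start site and form the set described here. These 1158 domains are 1.78% of the vehicle peaks and 8.37% of the length the vehicle peaks cover, and they hold 1372 of 19951 protein-coding start sites (6.88%). The members were chosen by their width and position in the vehicle list, so their width there is a description and not a finding.

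H3K4me2, dimethylation of lysine 4 of histone H3, marks promoters and enhancers. At a typical active promoter it flanks the start site, where nucleosomes are depleted, and most promoters carry a narrow peak. Unusually broad H3K4 methylation is known from genes of cell identity and of transcriptional control. LSD1, the demethylase of the CoREST complex, removes mono- and dimethyl groups from this lysine.

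ChIP-seq of the mark was done in U-937, an established human myeloid leukaemia line. The 4 groups were cells given only DMSO as vehicle, cells given all-trans retinoic acid (ATRA, a ligand of the retinoic acid receptors), cells given Corin (a synthetic compound that inhibits LSD1 and the deacetylases of the CoREST complex), and cells given ATRA together with Corin. Each drug was used at 0.1 µM, and exposure lasted 24 hours. Each treatment has 2 H3K4me2 libraries and 1 input library, 12 in all, and 1 peak list made from them together. The spread between replicates is therefore unknown, no test across treatments is possible, and what is compared throughout is 1 list with another. A range in parentheses after a share is its 95% Wilson interval, which reflects counting error alone. Library depth is not given by the lists, and they differ in length, from 65172 peaks (DMSO) and 66385 (ATRA) to 73997 (Corin) and 83969 (ATRA+Corin). Longer lists had more domains under the same rule: ATRA gave 1512, Corin 1697 and the combination 1985. Depth and treatment cannot be told apart from the lists alone.

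Start sites of the myeloid markers were marked in 11 of 12 cases in the DMSO list (MPO was the exception), and SPI1, CEBPA, CEBPB and FCER1G lay in broad domains. None of 5 epithelial and none of 6 erythroid marker start sites lay under a DMSO peak. Of 8 T cell markers 4 were covered, with CD3D, CD3E, CD3G and CD8A unmarked within 1 kb and CD4, which monocytes also carry, in a broad domain. Of 6 B cell markers 3 were covered, and EBF1, a B lineage transcription factor, lay in a broad domain. Of 5 fibroblast markers 1 was covered.

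The sequence just before the start site is shown for 2 members, because many breaks in the lists with Corin lay at this place. Each is the 200 bases that end before the canonical start site on GRCh38, read 5′ to 3′ on the strand of the gene, with CpG dinucleotides in capitals, and no annotated exon lies in these windows. MEIS1 (chr2:66434925-66435124, plus strand), the HOX cofactor, had no peak over the start site in either list with Corin. CEBPE (chr14:23119256-23119455, minus strand), a factor of granulocyte maturation, had a peak over the start site in every list.
MEIS1: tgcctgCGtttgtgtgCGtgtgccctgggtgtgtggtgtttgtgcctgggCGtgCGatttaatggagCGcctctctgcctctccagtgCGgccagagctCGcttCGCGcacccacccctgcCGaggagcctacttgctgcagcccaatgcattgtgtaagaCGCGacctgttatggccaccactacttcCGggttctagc
CEBPE: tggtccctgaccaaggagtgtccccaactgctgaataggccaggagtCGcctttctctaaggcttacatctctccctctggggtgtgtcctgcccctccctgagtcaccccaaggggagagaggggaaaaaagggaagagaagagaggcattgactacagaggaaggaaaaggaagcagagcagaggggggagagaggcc
The MEIS1 window holds 13 CpG and the CEBPE window 1. Among the listed genes, every window with fewer than 9 CpG was covered in all lists, such as those of SPI1 (6) and CDKN2C (7). From 9 CpG upward the number did not separate covered from uncovered windows. CEBPB (32) and E2F1 (33) were covered in every list, and BCL6 (9) was uncovered in both lists with Corin.

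The domains were mostly moderate in width. Their median was 4788.5 bp, with quartiles of 4317 and 5701.5 bp, and 660 of them were under 5000 bp and 18 over 10000 bp. A single start site lay in 967 domains, 2 in 171, 3 in 17 and 4 in 3. The narrowest members lay over TMEM72 (4002 bp), over C1orf131 and GNPAT (4005 bp) and over PIERCE1 and MRPS2 (4005 bp), and the widest peaks just under the limit, over CREBZF, OSGIN2 and CARD19, were each 3999 bp wide. The limit thus falls in a continuous range of widths. Within the DMSO list the members were strong peaks, with a median fold enrichment over input (the authors' value) of 32.03 against 6.79 for the whole list, and the weakest member stood at the 61.8th percentile of the list by −log10 q.

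Domains reached farther into the gene than upstream of it. Among the 967 domains with 1 start site, the vehicle peak extended a median of 1631 bp upstream and 3228 bp downstream, and 82.2% reached farther downstream. The strongest point of the vehicle peak lay downstream of the start site in 67.3% of them and within 200 bp of it in 8.17%. The 500 bp around their start sites had a median of 106 CpG per kb, compared with 96 for vehicle peaks of 1000 bp to under 4000 bp over a start site and 80 for all protein-coding start sites. Over their whole length, members held 41.5 CpG per kb, and the 491 vehicle peaks of at least 4000 bp without a start site held 22.4. A start site on the opposite strand within 1 kb upstream was annotated for 33.8% of the member start sites, for 28.2% of those under the narrower peaks and for 21.4% of all protein-coding start sites.

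Several listed groups had a larger share of their genes in broad domains than protein-coding genes as a whole. Of 34 listed myeloid transcription factors, 13 had their start site in a broad domain (38.2%, 23.9 to 54.96%), compared with 6.88% of all protein-coding genes. Counted the same way were 15 of 56 chromatin regulators (26.8%, 16.96 to 39.6%), 7 of 21 cell cycle and growth genes (33.3%), 9 of 38 immediate-early and stress genes (23.7%), 8 of 37 myeloid signalling and surface genes (21.6%), 3 of 15 leukaemia stem and progenitor genes (20%) and 4 of 22 retinoid receptor and response genes (18.2%). The zinc finger genes, a large family of transcription factors, stood below all genes, with 19 of 515 (3.69%), and 0 of 70 replication-dependent histone genes were members, although 22 of their start sites lay under some vehicle peak. Of 84 ribosomal protein genes 7 were members (8.33%), which is 38.9% of the 18 whose start site lay under a vehicle peak, compared with 14.5% of all genes under one. Several lists hold genes known to be active in such cells, so these shares describe the lists and are no independent evidence.

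To ask what became of each domain, the peaks of each treated list that overlapped it by at least 1 bp were counted and measured. A domain was called split when it met at least 2 peaks, and otherwise narrower, similar or wider when the width of its single treated peak was under 0.8 times, within, or over 1.2 times that of the vehicle peak. No domain was absent from any treated list, which allows a share of up to 0.331% at the upper Wilson limit; over all 8685 vehicle peaks that hold a start site, 0.368% were absent with ATRA, 0.484% with Corin and 0.438% with ATRA+Corin. In every treated list the median domain stayed covered over 98.6% of its vehicle length, and 0 domains were covered over less than 50% of it. Members were strong vehicle peaks, which left little room for absence. The lists differed in the continuity and the outer edges of the domains, and also in peak height. The median of the highest fold enrichment per domain was 42.5 with ATRA, 23.4 with Corin and 31.3 with ATRA+Corin, against 32.03 in DMSO. A wider domain is therefore not always a stronger one, and the part of depth in these values was not tested.

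With ATRA, 773 of the 1158 domains were similar (66.8%), 248 were split (21.4%, 19.1 to 23.9%), 132 were wider (11.4%, 9.69 to 13.4%) and 5 were narrower (0.432%). Over all 8685 vehicle peaks that hold a start site, the ATRA list gave 66.6% similar, 11.0% split, 20.3% wider and 1.74% narrower. With Corin, 430 domains were similar (37.1%), 468 split (40.4%, 37.6 to 43.3%), 259 wider (22.4%, 20.1 to 24.9%) and 1 narrower, against 38.6% similar, 24.8% split, 34.7% wider and 1.36% narrower over all start site peaks. With ATRA+Corin, 385 domains were similar (33.2%), 473 split (40.8%, 38.05 to 43.7%), 298 wider (25.7%, 23.3 to 28.3%) and 2 narrower, against 33.3% similar, 25.2% split, 39.9% wider and 1.15% narrower over all start site peaks. The members' width in DMSO enters each of these contrasts, so nothing is read from the distance between members and background. Both lists with Corin differed from the ATRA list in the same way among the members, with more split and more wider domains and fewer similar ones; whether replicates would differ as much is unknown.

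**Figure D1:**
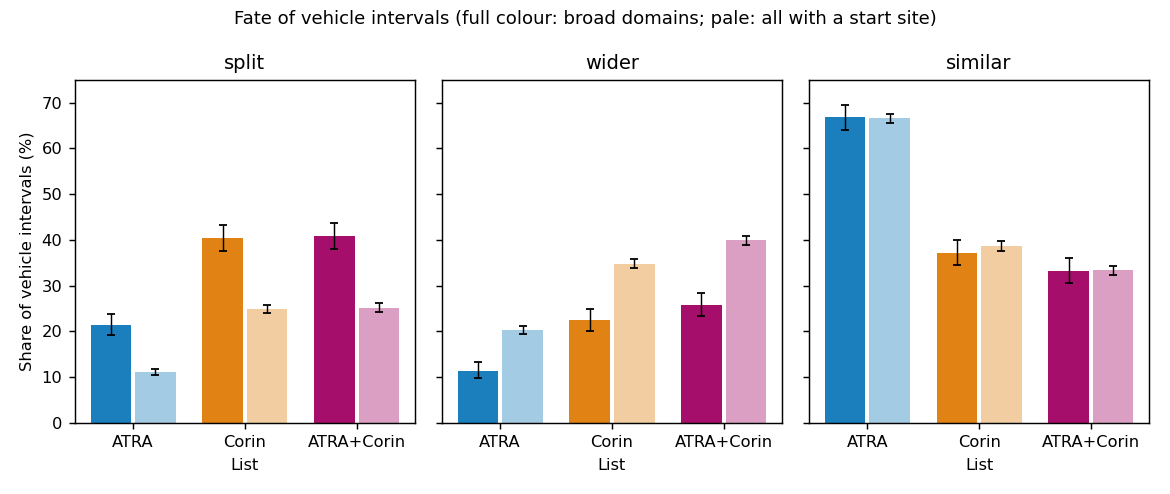
Share of vehicle peaks (y axis, percent) that were split, wider or similar in each treated list (x axis), for the 1158 broad domains (full colour) and for all 8685 vehicle peaks with a start site (pale); error bars are 95% Wilson intervals. Split domains made up 21.4% with ATRA, 40.4% with Corin and 40.8% with ATRA+Corin.

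A longer domain offers more places for a break, so breaks were also counted by length. Broad domains had 284 breaks with ATRA, 544 with Corin and 533 with ATRA+Corin, which is 0.462, 0.885 and 0.867 breaks per 10 kb of vehicle domain. Vehicle peaks of 1000 bp to under 4000 bp over a start site had 0.425, 1.03 and 1.05 breaks per 10 kb in the same order. Breaks that held no start site came at 0.366, 0.502 and 0.475 per 10 kb in broad domains and at 0.239, 0.414 and 0.386 in the narrower peaks. Broad peaks without a start site had 0.477, 0.594 and 0.470 breaks per 10 kb. The width of the peaks in DMSO enters these rates as well, so nothing is read from the distance between the groups of peaks.

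The breaks were short. Their median length was 153 bp with ATRA, 152.5 bp with Corin and 154 bp with ATRA+Corin, and 75.7%, 73.2% and 71.3% of them were under 200 bp. The shortest was 102 bp, which is also the shortest distance between neighbouring peaks in each of the 4 lists. Breaks of over 500 bp numbered 13 with ATRA, 15 with Corin and 21 with ATRA+Corin. When peaks of a treated list up to 500 bp apart were joined, the split share was 1.12% with ATRA, 1.30% with Corin and 1.81% with ATRA+Corin. Most split domains fell into 2 pieces (216 of 248, 401 of 468 and 420 of 473), and a piece of at least 4000 bp remained in 99, 215 and 226 of them.

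Where the breaks lay separated the lists. With ATRA 59 of 284 breaks held a start site (20.8%), with Corin 235 of 544 (43.2%) and with ATRA+Corin 241 of 533 (45.2%). Over all vehicle peaks with a start site these shares were higher, at 37.2%, 55.8% and 58.9%. Breaks away from start sites numbered 225, 309 and 292. In domains with 1 start site, 31.2% of the breaks with ATRA had their centre within 500 bp of it, compared with 67.0% with Corin and 69.95% with ATRA+Corin. Counted once for each start site they hold, which gives 253 entries, the start site breaks with Corin had a median length of 168 bp, and 75.5% were centred upstream of the start site, with a median centre at −38 bp.

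Of the 1372 member start sites, all covered in DMSO by the rule, 72 were uncovered with ATRA (5.25%), 268 with Corin (19.5%) and 280 with ATRA+Corin (20.4%). The background over all 9432 start sites under a vehicle peak was 8.24% uncovered with ATRA, 24.4% with Corin and 25.3% with ATRA+Corin. All 3 treated lists covered 981 member start sites (71.5%). Both lists with Corin but not the ATRA list left 123 uncovered (8.97%), the Corin list alone 95 (6.92%), the ATRA+Corin list alone 101 (7.36%) and the ATRA list alone 8 (0.583%). Over all start sites under a vehicle peak, 65.2% were covered in all 3 treated lists, and these 4 patterns made up 10.4%, 7.75%, 8.43% and 0.912% in the same order. Either list with Corin thus left a similar number of start sites uncovered, and not always the same ones.

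**Figure D2:**
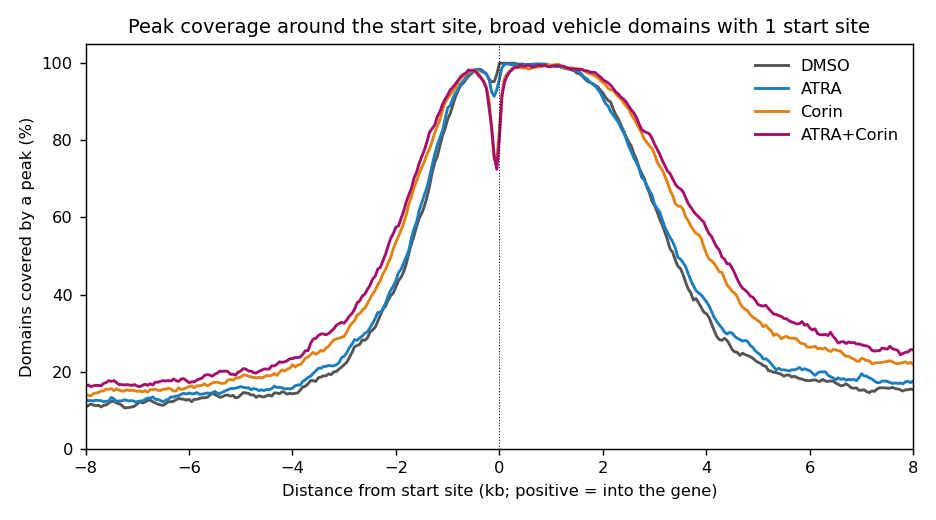
Percent of the 967 broad domains with 1 start site that had a peak at each distance from it (x axis in kb, positive into the gene), for each of the 4 lists. The lists with Corin dip to 74.8% (Corin) and 72.5% (ATRA+Corin) at 50 bp upstream. The low points just upstream are 95.2% in DMSO, where the rule requires a peak at the start site, and 91.4% with ATRA. Beyond 2 kb on either side, the lists with Corin lie above DMSO and ATRA.

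Coverage just upstream of the start site had a low point in every list. It was 95.2% in DMSO at 150 bp upstream, 91.4% with ATRA at 100 bp upstream, 74.8% with Corin at 50 bp upstream and 72.5% with ATRA+Corin at 50 bp upstream. The rule fixes DMSO at 100% at the start site itself, so its height there is no finding. In the vehicle peaks of 1000 bp to under 4000 bp with 1 start site, the low points were 80.1% in DMSO, 80.5% with ATRA, 65.1% with Corin and 64.6% with ATRA+Corin. At 4 kb downstream the order was turned, with 35.1% of the domains covered in DMSO, 38.2% with ATRA, 50.7% with Corin and 57.2% with ATRA+Corin. At 2 kb upstream coverage was 42.0%, 43.6%, 53.6% and 57.5% in the same order.

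The outer edges moved outward, more so downstream. Measured from the first to the last piece, the median upstream reach was 1631 bp in DMSO, 1707 bp with ATRA, 1922 bp with Corin and 2023 bp with ATRA+Corin. The median downstream reach was 3228 bp, 3355 bp, 3814 bp and 3989 bp in the same order. Paired by domain, the downstream edge lay a median of 55 bp farther out with ATRA, 386 bp with Corin and 547 bp with ATRA+Corin, and both edges lay farther out in 43.7%, 68.9% and 71.5% of the domains. Split domains reached outward about as often as the whole set. From first to last piece, over 1.2 times the vehicle width was spanned by 25 of 248 split domains with ATRA (10.1%, against 13.6% of all members), 178 of 468 with Corin (38.0%, against 37.7%) and 237 of 473 with ATRA+Corin (50.1%, against 46.2%). Over all 8685 vehicle peaks that hold a start site, the shares were 22.0%, 46.8% and 54.7%, so such spans were not particular to broad domains.

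Much of the widening was a joining of peaks that were separate in DMSO. Of the wider domains, 113 of 132 with ATRA (85.6%), 186 of 259 with Corin (71.8%) and 199 of 298 with ATRA+Corin (66.8%) ran into at least 1 further vehicle peak. Over members of all classes, 20.4%, 32.6% and 34.7% did so. The share over all vehicle peaks with a start site was not counted. Few reached another protein-coding start site: 18 domains with ATRA, 15 with Corin and 17 with ATRA+Corin did so, counting all classes.

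Because the vehicle list chose the members, a domain cannot be split there, and the same rule was therefore applied to each treated list and its domains looked up in DMSO. Splitting was seen in that direction too, in 630 of 1512 domains chosen in ATRA (41.7%), 810 of 1697 chosen in Corin (47.7%) and 964 of 1985 chosen in ATRA+Corin (48.6%). For domains chosen in DMSO the split shares were 21.4%, 40.4% and 40.8%, so with ATRA the 2 directions differed most. For both lists with Corin, start sites were less often uncovered in DMSO than in the reverse choice. Of 1927 start sites in domains chosen in Corin, 70 were uncovered in DMSO (3.63%), compared with 19.5% for the reverse choice. Of 2233 in domains chosen in ATRA+Corin, 90 were uncovered in DMSO (4.03%), compared with 20.4%. For ATRA the uncovered shares of the 2 directions were near each other, at 6.62% and 5.25%. Between the lists with Corin, the uncovered share was 12.8% for domains chosen in Corin and looked up in ATRA+Corin, and 10.7% for the reverse.

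**Figure D3:**
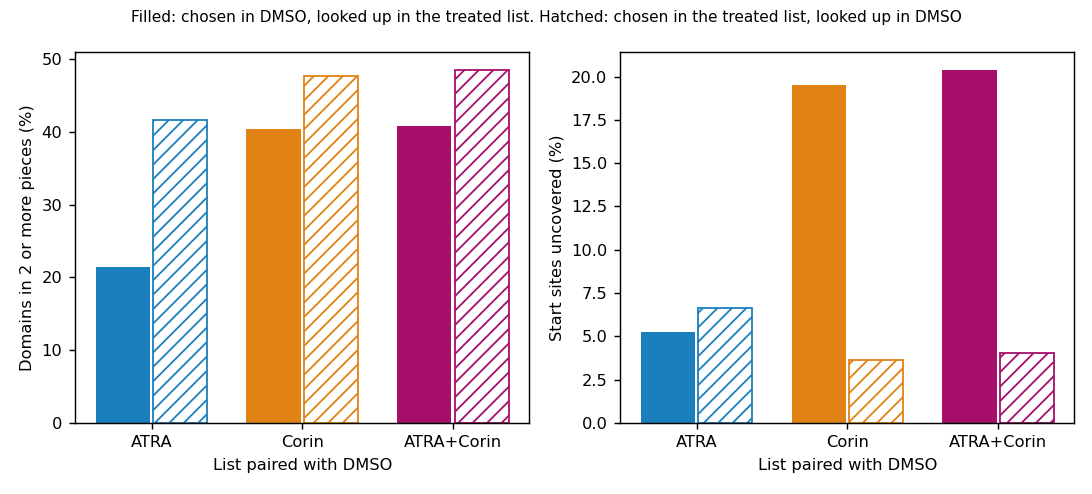
Share of broad domains in at least 2 pieces (left, percent) and of their start sites without a peak (right, percent) for DMSO paired with each treated list (x axis), with the domains chosen in DMSO (filled) or in the treated list (hatched). Splitting is frequent in both directions, whereas uncovered start sites reach 19.5% and 20.4% for domains chosen in DMSO and looked up in the lists with Corin, and 3.63% and 4.03% the other way.

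Member start sites with few CpG stayed covered. Of the 137 with fewer than 40 CpG per kb in the surrounding 500 bp, 3 were uncovered with ATRA (2.19%), 4 with Corin (2.92%) and 3 with ATRA+Corin (2.19%). From 40 to 80 CpG per kb, 8 of 229 were uncovered with ATRA (3.49%), 42 with Corin (18.3%) and 40 with ATRA+Corin (17.5%). From 80 to 120 the shares were 7.09%, 22.0% and 24.1% of 522, and at 120 or more the shares were 4.96%, 22.1% and 22.9% of 484. Over all start sites under a vehicle peak, the lowest class likewise had the lowest shares with Corin, at 9.17% of 883, and with ATRA+Corin, at 7.93%. With ATRA this was not so, at 6.12% in the lowest class and 5.40% in the highest. Among members, start sites with a divergent partner were uncovered in 8.19% of 464 cases with ATRA, 25.4% with Corin and 26.9% with ATRA+Corin. Those without one were uncovered in 3.74%, 16.5% and 17.1% of 908 in the same order. Over all start sites under a vehicle peak, the shares with a partner were 10.7%, 29.996% and 32.6% of 2697. Without one they were 7.26%, 22.2% and 22.3% of 6735. This contrast was thus not particular to broad domains or to the lists with Corin. The CpG and divergent classes were added after the data had been seen. The median CpG density was nearly equal for start sites covered in every list (104 per kb) and uncovered in both lists with Corin (106). Start sites uncovered in both lists with Corin lay in weaker vehicle peaks, with a median fold enrichment of 25.8 against 33.96 for those covered in every list. The part of peak strength in the difference was not tested.

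**Figure D4:**
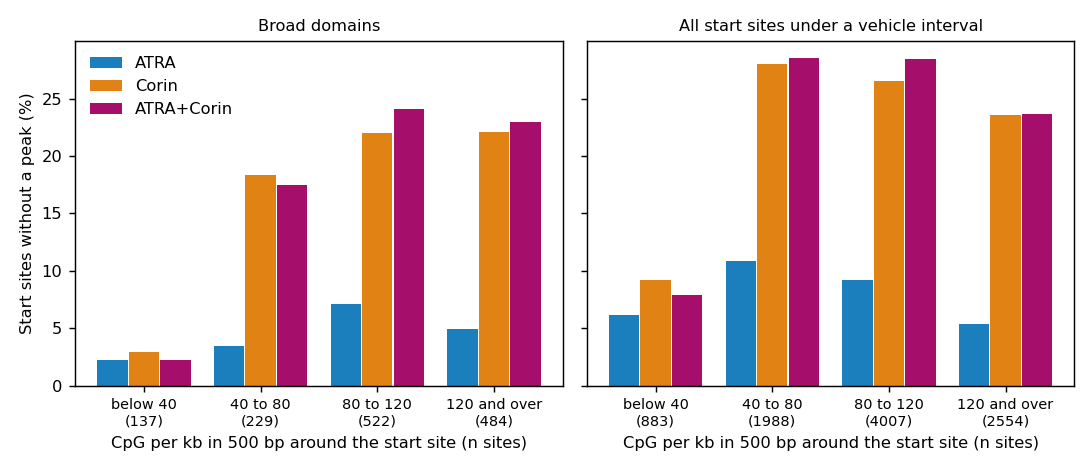
Start sites without a peak in each treated list (y axis, percent) by CpG density in the 500 bp around them (x axis, number of sites in parentheses), for broad domains (left) and all start sites under a vehicle peak (right). In broad domains the lowest CpG class stands at 2.19 to 2.92% in the 3 lists, and the classes from 40 CpG per kb upward at 17.5 to 24.1% in the lists with Corin.

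The domains that the retinoid list contributes were wider with ATRA in 4 of 4 cases, and in 4 of 4 with ATRA+Corin, compared with 11.4% and 25.7% of all members. With Corin alone 1 of 4 was. With the wider class set at 1.5 times, 3 were wider with ATRA and 3 with ATRA+Corin. The list was chosen with earlier results of these data known, so these counts describe 4 domains and are no independent evidence. CEBPE, the granulocytic transcription factor, had a domain of 4279 bp in DMSO (chromosome 14, 23116648 to 23120926), 8327 bp with ATRA, 4582 bp with Corin and 8951 bp with ATRA+Corin. The 2 lists with ATRA thus stood at about the same width and the other 2 well below it. In these lists the CEBPE domain ran 6668 bp and 6918 bp into the gene, compared with 2607 bp in DMSO, where a separate peak followed. TNFAIP2, a gene known to be induced by retinoic acid and tumour necrosis factor, had 4733 bp in DMSO (chromosome 14, 103120660 to 103125392), 7935 bp with ATRA, 5662 bp with Corin and 6618 bp with ATRA+Corin. Its ATRA domain extended upstream, to position −5892 from the start site against −2801 in DMSO, where a separate peak lay from −5611 to −3651. With ATRA+Corin a separate peak from −6167 to −3281 lay next to the domain, which began at −3161.

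DHRS3, which reduces retinaldehyde and limits retinoic acid formation, spanned 7194 bp in DMSO (chromosome 1, 12614125 to 12621318), 8645 bp with ATRA, 8249 bp with Corin and 14665 bp with ATRA+Corin. With ATRA it lay just past the limit of the wider class, and the combination stood apart from the other 3 lists. PRAM1, an adaptor protein of myeloid cells, spanned 6847 bp in DMSO (chromosome 19, 8497948 to 8504794), 12251 bp with ATRA, 11750 bp with Corin and 13364 bp with ATRA+Corin, so every treated list was wider. In DMSO separate peaks lay over most of the PRAM1 stretch from 4853 to 9483 bp into the gene, which the treated domains took in. All 4 genes kept a peak over the start site in every list.

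**Figure D5:**
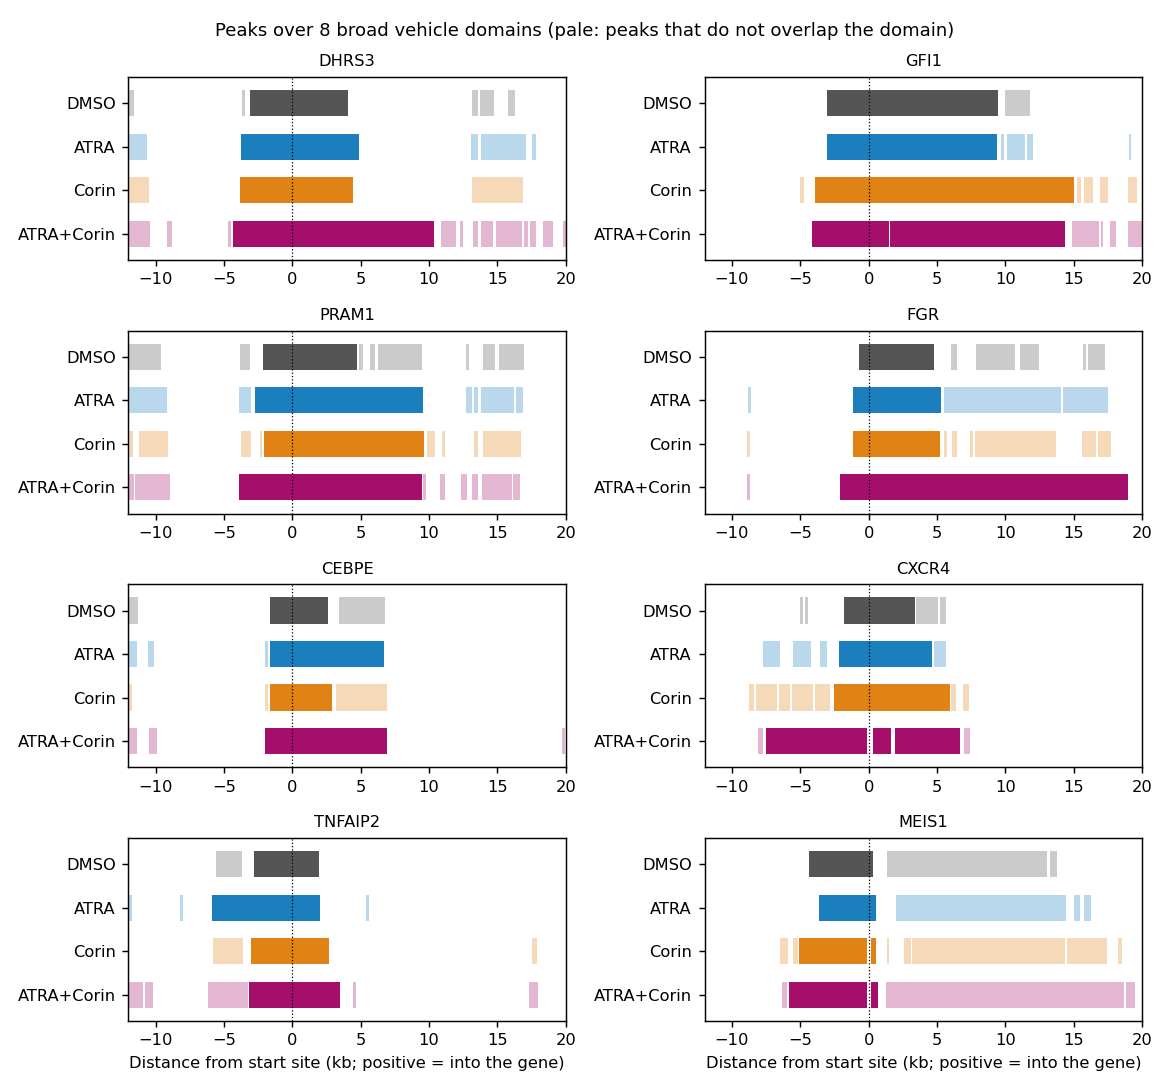
Peaks of the 4 lists over 8 broad vehicle domains, drawn by distance from the start site (x axis in kb, positive into the gene), with peaks that do not overlap the vehicle domain in pale colour. CEBPE is wider in both lists with ATRA, FGR reaches 18947 bp into the gene with ATRA+Corin, and MEIS1 and CXCR4 show a break at the start site.

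Of the 13 myeloid transcription factors in broad domains, 3 were wider with ATRA, 7 with Corin and 5 with ATRA+Corin, and 2, 2 and 5 were split. Among all members 11.4%, 22.4% and 25.7% were wider and 21.4%, 40.4% and 40.8% split in the same order. SPI1, which encodes the myeloid factor PU.1, spanned 5064 bp in DMSO (chromosome 11, 47374154 to 47379217), 5611 bp with ATRA, 6667 bp with Corin and 8095 bp with ATRA+Corin, in 1 piece each time. CEBPB, a factor of monocyte differentiation, went from 5764 bp in DMSO to 6319 bp with ATRA, 7295 bp with Corin and 11920 bp with ATRA+Corin. LMO2, a bridging factor of blood progenitors, had 6104, 6688, 8680 and 11241 bp in that order. In these 3 genes the combination list was the widest, and the start site remained covered throughout.

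GFI1, a repressor that recruits LSD1 and CoREST, had the tenth widest vehicle domain, 12533 bp on chromosome 1 (92477431 to 92489963). It spanned 12482 bp with ATRA, 18962 bp with Corin and 18498 bp in 2 pieces with ATRA+Corin, the break lying inside the gene with the start site covered. Its highest fold enrichment was 32.6 in DMSO, 43.2 with ATRA, 8.11 with Corin and 18.5 with ATRA+Corin, so the wider GFI1 domains were the weaker ones. IKZF1, the lymphoid and myeloid regulator Ikaros, spanned 6453 bp in DMSO, 10545 bp with ATRA, 13226 bp with Corin and 13574 bp in 2 pieces with ATRA+Corin, where its start site was uncovered. CEBPA, the main factor of granulocyte and monocyte commitment, was in 1 piece with ATRA and with Corin and in 2 with ATRA+Corin, again with the start site uncovered. BCL6, a transcriptional repressor, and KLF6, a zinc finger factor, lost the peak over the start site in both lists with Corin. LYL1 and IRF5 changed little, LYL1 spanning 9051, 9138, 9460 and 9298 bp and IRF5 5506, 5399, 5768 and 5825 bp in DMSO, ATRA, Corin and ATRA+Corin.

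Of the 9 immediate-early and stress genes, 0 were split with ATRA, 4 with Corin and 6 with ATRA+Corin (21.4%, 40.4% and 40.8% of all members), and the median ratio of the span to the vehicle width was 1.01, 1.40 and 1.54. JUN, a subunit of AP-1, spanned 4315 bp in DMSO and 4273 bp with ATRA, then 5862 bp with Corin and 6329 bp with ATRA+Corin, both in 2 pieces. IER5 spanned 4572 bp in DMSO, 5073 bp with ATRA, 6405 bp with Corin and 7463 bp with ATRA+Corin, and its start site was uncovered in the last 2 lists. ZFP36, which destabilises inflammatory mRNAs, spanned 6651, 6580, 10992 and 11157 bp in DMSO, ATRA, Corin and ATRA+Corin, in 2 pieces with Corin. JUNB differed from these, since it was wider with ATRA (10158 bp) and ATRA+Corin (13229 bp) but not with Corin (7794 bp) against 7557 bp in DMSO.

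Of the 15 chromatin regulators, 3 were split with ATRA and 8 in each list with Corin, against 21.4%, 40.4% and 40.8% of all members. Start sites were uncovered in 0 of them with ATRA, 4 with Corin and 5 with ATRA+Corin, against 5.25%, 19.5% and 20.4% of all member start sites, so these counts were near those of the whole set. RCOR3, a CoREST family member, spanned 4488 bp in DMSO, 4986 bp with ATRA, 4921 bp with Corin and 5030 bp with ATRA+Corin, and lost the peak over its start site in both lists with Corin. The same was seen for KMT2B and for KMT2E, members of the H3K4 methyltransferase family by name. KMT2E lay in 3 pieces with ATRA, 4 with Corin and 3 with ATRA+Corin. KDM6B, an H3K27 demethylase, spanned 7494 bp in DMSO and 7476 bp with ATRA, then 12535 bp with Corin and 12778 bp in 2 pieces with ATRA+Corin. ARID1A, a subunit of the BAF remodelling complex, was wider in each treated list, at 11705, 12337 and 12992 bp against 8490 bp.

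The HOXA cluster held 4 broad domains between 27152714 and 27204564 on chromosome 7, and the lists differed there in the number of peaks. The domain over HOXA11 and a gene without a symbol (13954 bp) and that over HOXA13 (7140 bp) were joined in the ATRA list into a single peak of 25366 bp. In the Corin list the HOXA11 domain met 4 peaks, spanning 23613 bp, the widest of which (10021 bp) also ran into the HOXA13 domain, and in the ATRA+Corin list it met a single peak of 16828 bp. HOXA7 was in 1 piece of 14762 bp with ATRA, in 3 pieces spanning 9591 bp with Corin and in 2 spanning 9628 bp with ATRA+Corin, against 9743 bp in DMSO. HOXA10 spanned 5564 bp in DMSO, 6462 bp with ATRA, 5616 bp in 2 pieces with Corin and 6816 bp with ATRA+Corin. MEIS1, whose start site lay 302 bp from the edge of its 4669 bp vehicle domain, met 1 peak of 4222 bp with ATRA. It met 2 peaks in each list with Corin, the second being a separate peak of 416 bp with Corin and 559 bp with ATRA+Corin inside the gene.

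Among the 8 myeloid signalling and surface genes, 1 was split with ATRA, 3 with Corin and 1 with ATRA+Corin, and 1, 4 and 1 were wider. The shares over all members were 21.4%, 40.4% and 40.8% split and 11.4%, 22.4% and 25.7% wider. CXCR4, the receptor that holds blood cells in the marrow, spanned 5195 bp in DMSO, 6770 bp with ATRA, 8505 bp with Corin and 14218 bp in 3 pieces with ATRA+Corin, with its start site uncovered in the last. CD44, the hyaluronan receptor, spanned 4245, 4337, 7402 and 7344 bp, so the 2 lists with Corin stood apart. PRTN3, a protease of azurophil granules, was narrower with ATRA+Corin alone, at 5372 bp against 7890 bp in DMSO (chromosome 19, 838858 to 846747), 8035 bp with ATRA and 7729 bp in 3 pieces with Corin. Its neighbour AZU1, also an azurophil granule protein, lay in another domain of 9931 bp that spanned 11782, 12269 and 11876 bp with ATRA, Corin and ATRA+Corin. Of the 7 cell cycle and growth genes, E2F2 was the widest against DMSO, at 9524 bp with ATRA, 10964 bp in 2 pieces with Corin and 9519 bp with ATRA+Corin against 4984 bp.

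The 7 ribosomal protein genes in broad domains were split in 4 cases with ATRA and in 5 in each list with Corin, and 0 were wider in any list. Of the 19 zinc finger genes, 5 were split with ATRA, 10 with Corin and 11 with ATRA+Corin. Among all members the split shares were 21.4%, 40.4% and 40.8% and the wider shares 11.4%, 22.4% and 25.7%.

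The largest domain of the set lay over RNF220, a ubiquitin ligase gene, and measured 21877 bp (chromosome 1, 44404797 to 44426673). It spanned 22656 bp with ATRA, 31500 bp in 2 pieces with Corin and 26522 bp in 2 pieces with ATRA+Corin. ARHGEF2, a guanine nucleotide exchange factor gene, followed with 14392 bp, and spanned 15460, 15701 and 20372 bp, in 1 piece each time. PRKCD, the protein kinase C delta gene, had 13355 bp in DMSO, lay in 3 pieces with ATRA and in 1 piece of 15634 bp with Corin and 15971 bp with ATRA+Corin. KLF16 was the reverse, with 13522 bp in DMSO, 1 piece of 13481 bp with ATRA, 4 pieces with Corin and 2 with ATRA+Corin. The widest domains thus stayed broad in every list, with breaks in different lists.

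As a ratio to the vehicle width, FGR and ARRB1 had the largest single peaks of the set, both with the combination. FGR, a Src family kinase of myeloid cells, had 5474 bp in DMSO (chromosome 1, 27630412 to 27635885), 6441 bp with ATRA, 6333 bp with Corin and 21024 bp with ATRA+Corin. In the other lists separate peaks lay over much of the stretch that this FGR domain took in, from −2076 to 18947 bp. With ATRA such peaks ran from −1130 to 5310, from 5506 to 14078 and from 14244 to 17474 bp, with short breaks between them. ARRB1, which encodes beta-arrestin 1, had 4380, 7690, 6863 and 17003 bp in the same order. As single peaks, FGR and ARRB1 were wider in the combination list than in either single drug list by a wide margin. TNS3, a focal adhesion protein, was as wide with Corin (13266 bp) as with ATRA+Corin (13322 bp), against 4143 bp in DMSO and 8463 bp with ATRA. Its highest fold enrichment was 52.1 in DMSO, 26.4 with ATRA, 13.8 with Corin and 53.3 with ATRA+Corin. MSN, which encodes moesin, spanned 13772 bp with Corin and 13479 bp with ATRA+Corin against 4200 bp in DMSO and 3945 bp with ATRA. ADA, adenosine deaminase, was wide in every treated list, at 12813, 13247 and 13706 bp against 5221 bp. S1PR4, a sphingosine phosphate receptor of blood cells, was wide with Corin alone, at 12118 bp against 4282 bp in DMSO, 3914 bp with ATRA and 4383 bp with ATRA+Corin.

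Losses of covered length were rare and affected few genes. TENT5C, a poly(A) polymerase gene on chromosome 1 (117606048 to 117611875), kept 56.04% of its 5828 bp with ATRA, 80.4% with Corin and 56.7% with ATRA+Corin. CALR, the chaperone calreticulin, kept 68.5% with ATRA, 99.3% with Corin and 59.9% with ATRA+Corin. Each of these 2 thus kept less in the lists with ATRA than in the Corin list. WFDC1 kept less in the lists with Corin, at 69.6% with Corin and 60.6% with ATRA+Corin, than with ATRA, at 83.5%. SLC35F6, a solute carrier gene, was narrower with ATRA (2701 bp against 4115 bp) and wider with Corin (10527 bp) and ATRA+Corin (10615 bp). ZNF275 was broken most often in the combination list, into 5 pieces, with 2 with ATRA and 3 with Corin.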

How the data were processed

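Peak lists deposited by the authors were analysed, 1 for each treatment; the names of the deposited files mark them as the optimal set of an overlap between replicates. Per the submitters' processing notes, reads were handled with Trimmomatic, Bowtie2, Picard and MACS2 on hg38; versions, parameters and thresholds are not given in the sources used here. The deposited values per peak are a score, a fold enrichment ratio over input, a −log10 q and a summit position. No peak ended past a chromosome of GRCh38 (0 in each list), and coordinates are counted from 1 on that build.

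Start sites are those of the canonical transcripts of 19951 protein-coding genes (GENCODE release 44). Peaks did not overlap within a list. Python 3.11.15, pandas 2.3.3, numpy 2.4.6 and scipy 1.17.1 were used, and the assignment of classes was tested on simulated data. The members, gene lists and measures were chosen with earlier results of these data known. Named were the 10 widest domains, for each treatment the 5 with the lowest covered share, the 5 with the largest ratio of widths and the 5 with the most pieces, the domains next to the width limit, and members of the gene lists; not all are described. EBF1, CD4 and FCER1G come from the marker lists, and the 8 domains drawn as maps were chosen with their values known. Peaks left out of a list look like breaks: among the first 30000 peak numbers, 16 to 22 were missing per list. Sequences were read for the listed genes, and 2 are printed; some named domains are not reported here.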

Additional observations from a re-analysis of the deposited data

How the results depend on the processing

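Of 139 values recomputed under other settings, 95 stayed within the Wilson interval of the reported value or, for counts, within 1.5 times of it, and 44 moved. Width limits of 3000 and 5000 bp gave 2881 and 498 domains. At 3000 bp, 18.7% were split with ATRA, 1.11% narrower with ATRA, 25.4% wider with Corin and 29.3% wider with ATRA+Corin, and start sites were covered in 77.9% (Corin) and 76.8% (ATRA+Corin). At 5000 bp, 0% were narrower and 9.04% wider with ATRA, and start sites were covered in 96.7% (ATRA), 84.2% (Corin) and 84.5% (ATRA+Corin). Keeping only peaks whose −log10 q reached 5 gave 18.7% split with ATRA. Joining peaks up to 500 bp apart left 1.12%, 1.30% and 1.81% split with ATRA, Corin and ATRA+Corin, made 29.8%, 53.9% and 59.2% wider, and covered 99.7%, 99.1% and 98.8% of the start sites, by construction of that setting. With classes at 0.5 and 1.5 times the vehicle width, 0% were narrower in each list and 3.37%, 7.60% and 11.4% wider with ATRA, Corin and ATRA+Corin. With start sites of all coding transcripts, 95.99%, 85.2% and 84.5% were covered. An overlap of at least 200 bp and cutting every list to its 65172 strongest peaks moved none of these shares beyond its interval. In every setting without joining, both lists with Corin covered fewer start sites than the ATRA list. No paired analysis was possible because the lists carry no value of a single replicate, which also means that leaving out a replicate could not be run. The lists give no depth, and a peak left out of a list looks like a break. A break therefore shows a stretch without a listed peak and not absence of the mark.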
